A study of Mus musculus with 7 samples.

Results

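Clustered histone genes were followed in polyA-selected RNA libraries of the neonatal mouse dorsal midbrain. They were chosen by symbol, as every gene whose mouse symbol starts with Hist1h, Hist2h, Hist3h or Hist4h, and 4 histone genes outside the clusters (*H2afx*, *H2afz*, *H3f3a* and *H3f3b*) were added for comparison. Of the 52636 genes counted, 74 met this rule, 70 of them clustered. A gene was kept for the comparisons when at least 3 libraries held at least 10 counts, which left 19 genes, 15 clustered and 4 for comparison. The clusters contributed unequally, with 10 of 56 Hist1 genes, 2 of 10 Hist2 genes, 3 of 3 Hist3 genes and 0 of 1 Hist4 genes kept. Just inside the limit, *Hist1h3e* had 11, 4 and 1 counts in controls and 3, 9, 12 and 19 in conditional knockout (cKO) mice, in the order A2, A4, A6 and B1, B7, B8, B9 of the libraries that is kept throughout. Just outside it, *Hist4h4* had 4, 6 and 12 counts in controls and 6, 6, 6 and 16 in cKO mice.

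The mice tested the role of *Brn3b* (gene symbol *Pou4f2*), a transcription factor of dorsal midbrain neurons. The 3 control mice were *Brn3b* flox/+ :: *En1-Cre* (A2 and A6 at P4, A4 at P3) and the 4 cKO mice were *Brn3b* flox/- :: *En1-Cre* (B1 and B8 at P4, B7 and B9 at P2). Both groups therefore shared the *En1-Cre* driver, active in the embryonic midbrain, and a single floxed *Brn3b* allele. Once recombined, this allele carried an alkaline phosphatase reporter under the *Brn3b* promoter in place of the *Brn3b* coding sequence. The design compares 1 functional copy of *Brn3b* with none in cells that have expressed Cre. P2 occurred only among cKO mice, so age and genotype cannot be told apart when the P2 mice are set against controls. *Pou4f2* itself was at 46.5, 47.4 and 45.8 CPM (counts relative to each library's TMM-scaled total) in controls and at 9.65, 9.67, 10.6 and 11.6 CPM in cKO mice. Its log2 fold change was -2.16 ± 0.13 (SE), with an adjusted p of 0.00057 by edgeR's quasi-likelihood test, so the labels and the targeted gene agreed in all 7 libraries.

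Most histone genes of the clusters are copied into mRNA mainly while DNA is replicated. Their mRNAs typically end just after a short stem-loop that is bound by the stem-loop binding protein (SLBP) and carry no polyA tail, so that selection on oligo-dT beads recovers them poorly. Some clustered genes also make longer, polyadenylated mRNAs, which are known from differentiated cells. *H3f3a* and *H3f3b* (both encoding histone H3.3) and *H2afz* (H2A.Z) are expressed independently of replication from polyadenylated mRNAs, and *H2afx* (H2A.X, the variant that is phosphorylated at DNA breaks) can make both kinds of mRNA.

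The stem-loop was searched for in every annotated transcript as a fully paired stem of 6 bases that opens with GG and closes with CC around a 4-base loop TNTN. It was found in 46 of the 70 clustered genes and in *H2afx*, against 0.588% of the 21957 other protein-coding genes. The sequences below, written as DNA in the sense of the mRNA with the stem-loop in capitals and its 5 flanking bases on each side, come from GENCODE vM21 transcripts. They are shown because the genes differ in how far the annotated mRNA runs past this element, not in whether they have it.
Hist3h2ba: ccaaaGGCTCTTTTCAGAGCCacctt
Hist3h2a: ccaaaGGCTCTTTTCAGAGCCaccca
Hist1h1c: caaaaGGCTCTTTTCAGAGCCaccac
Hist1h4i: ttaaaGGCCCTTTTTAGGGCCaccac
Hist2h4: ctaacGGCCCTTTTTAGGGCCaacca
Hist1h4h: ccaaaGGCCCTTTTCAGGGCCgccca
Hist1h2bm: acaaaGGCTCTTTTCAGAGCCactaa
H2afx: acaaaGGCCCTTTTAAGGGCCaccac
The stem-loop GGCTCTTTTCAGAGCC was shared by 26 clustered genes of the H1, H2A, H2B and H3 classes, and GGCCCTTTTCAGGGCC by 7 H4 genes. The annotated transcript of *Hist1h2bm* stops 46 bases after its stem-loop, that of *Hist1h4h* also 46 bases after it, and those of *Hist3h2ba*, *Hist1h4i*, *H2afx*, *Hist1h1c*, *Hist2h4* and *Hist3h2a* go on for 169, 330, 822, 840, 1257 and 1643 bases. *Hist1h2bm*, with the same stem-loop as *Hist3h2ba*, had 32 counts over the 7 libraries, and *Hist3h2ba* had 6347.

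Sorted by annotated 3′ end, the clustered genes fell into 5 classes. In 23 genes no transcript ran more than 100 bases past the stem-loop, and 1 of these was kept (*Hist1h4h*). In another 23 genes a transcript ran further, and 10 of these were kept. In 17 genes the annotation ended within 50 bases of the stop codon, before any stem-loop, and 0 were kept, so their true 3′ ends are not known from it. In 4 genes (*Hist1h2bc*, *Hist2h2be*, *Hist1h2bq* and *Hist1h2br*) a longer 3′ UTR held no stem-loop, and 2 were kept. The last 3 genes are pseudogenes, of which 2 were kept (*Hist1h2al* and *Hist3h2bb-ps*). Genes that run past the stem-loop held 78.9% of the 18490 clustered counts, genes that end at it 1.61%, and the 4 genes with a longer 3′ UTR 17.5%. A polyA signal (AATAAA or ATTAAA on the sense strand in the last 40 bases) occurred in 12 of the 23 genes that run past the stem-loop and in 2 of the 23 that end at it, 1 of which was *Hist1h4h*.

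**Figure D1:**
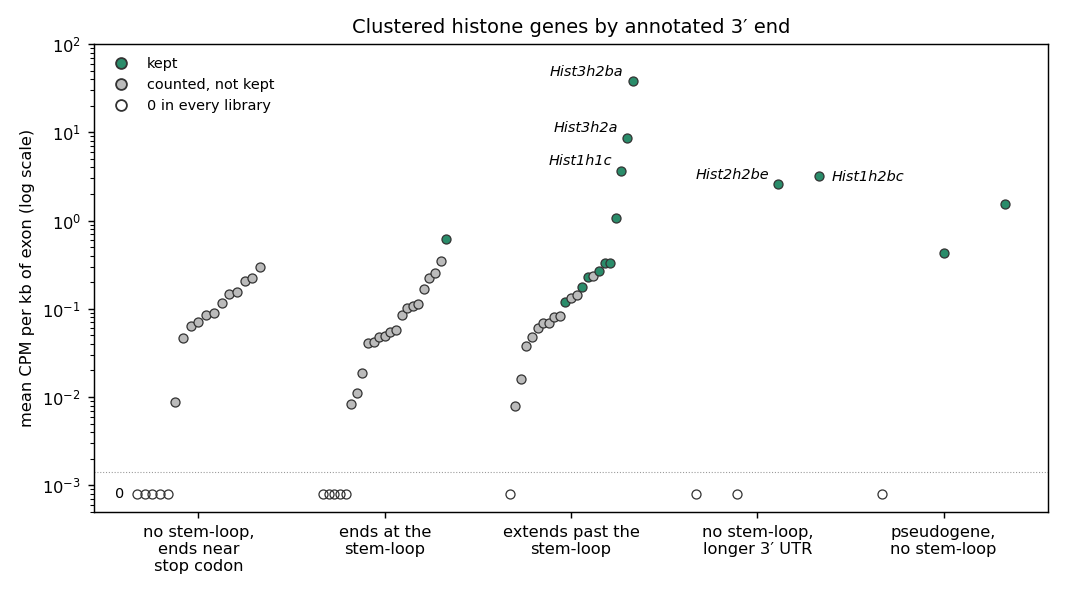
Mean CPM per kb of exon over 7 libraries (vertical, log scale) of the 70 clustered histone genes, each a point, by annotated 3′ end. The 5 labelled genes lie above 2 CPM per kb, and no gene that ends at the stem-loop exceeds 0.622 CPM per kb.

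On the scale of CPM per kb of exon, which corrects for length but not for sequence shared between genes, the median gene that runs past the stem-loop had 0.132, and the highest, *Hist3h2ba*, 37.7. The median gene that ends at the stem-loop had 0.0486, and the highest 0.622. The classes also differ in countable sequence, with a median of 84.9% of 100-base windows found in no other gene's transcripts for genes that run past the stem-loop and 47.6% for those that end at it, and 2 of 23 against 12 of 23 genes under 50%. How much of the difference in level goes with this was not tested. The ranges of both classes overlapped, and extension past the stem-loop did not by itself go with a high level: *Hist1h1d*, annotated for 4884 bases past its stem-loop, had 29 counts in all.

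Sequence shared between copies limits what can be counted. For each gene, the share of 100-base windows that occur in no other gene's transcripts was computed, since reads aligned to more than 1 place were set aside when the authors counted. This share had a median of 86.0% in the 15 kept genes (57.1% to 100%) and 47.6% in the 55 others. Among the 14 clustered genes at 0 in every library, 12 had fewer than 50% of windows unique, and *Hist2h2aa1*, *Hist2h2aa2*, *Hist2h2bb*, *Hist2h3b* and *Hist2h3c1* had none (0%). A low share can also come from genes that overlap the same place on either strand. Exons of all 5 genes overlap such a gene, for *Hist2h3b* only *Gm20628* on the opposite strand. Whether reads there could be counted depends on a strand option that is not stated. A count of 0 in these 5 genes therefore does not show that they were silent. *Hist1h2ba* and *Hist1h2aa*, at 72.6% and 89.7%, were also at 0, which at 3 counts allows up to 0.124 CPM in the shallowest library and 0.0353 CPM in the deepest. Across all 7 libraries the counts of 2 outnumbered the counts of 1, for example 2208 against 1571 genes in A2, so a count need not be 1 independent fragment and these limits, which cover counting error only, are too narrow.

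**Figure D2:**
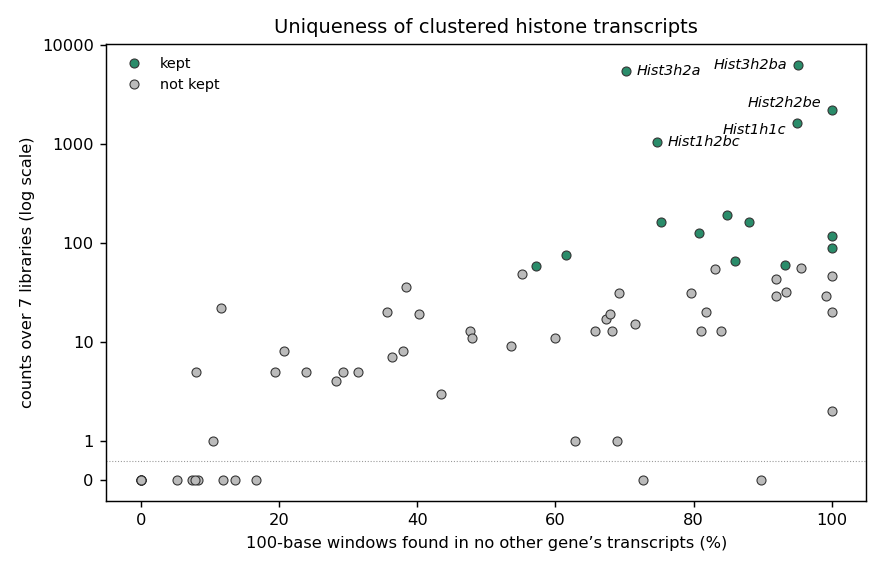
Share of 100-base windows of a gene found in no other gene's transcripts (horizontal, %) against its counts summed over 7 libraries (vertical, log scale, with 0 set below the dotted line) for the 70 clustered genes. Both kept and uncounted genes lie at high uniqueness, but 12 of the 14 genes at 0 have fewer than 50% of windows unique.

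The clustered signal came from few genes. *Hist3h2ba* (H2B) supplied 34.3% of clustered counts and *Hist3h2a* (H2A) 29.4%, followed by *Hist2h2be* (H2B) with 11.9%, *Hist1h1c* (linker histone H1.2) with 8.75% and *Hist1h2bc* (H2B) with 5.66%. Together these 5 genes held 90.0%. These shares pool libraries of unequal depth and differed between them. Within single libraries *Hist3h2ba* held 23.4% to 43.3%, *Hist3h2a* 26.1% to 35.3%, *Hist2h2be* 5.82% to 18.6%, *Hist1h1c* 6.88% to 11.0% and *Hist1h2bc* 4.32% to 7.28%. In B7 *Hist3h2a* exceeded *Hist3h2ba*, and in A4, A6 and B8 *Hist1h1c* exceeded *Hist2h2be*, whose share was on average 7.82% in controls and 14.1% in cKO mice. By class, H2B genes held 54.0%, H2A 31.2%, H1 10.2%, H4 3.61% and H3 1.01% of clustered counts. These shares describe what polyA selection and counting left, and are not shares of histone mRNA in the tissue.

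The 3 Hist3 genes lie in a short stretch of chromosome 11 (GRCm38). *Hist3h2ba* is at chr11:58948920-58949533 on the + strand, *Hist3h2bb-ps*, a processed pseudogene, at chr11:58954048-58954512 on the - strand, and *Hist3h2a* at chr11:58954685-58956830 on the + strand. The start of *Hist3h2bb-ps* lies 173 bases from that of *Hist3h2a* on the opposite strand. *Hist3h2bb-ps* had 60 counts in all, 0 of them in A4. Exons of *Hist3h2a* overlap *Trim17* on the same strand and *Gm44313*, and reads in the overlap could be counted as ambiguous or for either gene, depending on a counting option that is not stated.

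Among all kept genes the level per kb was highest for *H3f3b*, at 165 CPM per kb on average over 7 libraries. *Hist3h2ba* came next at 37.7 and *H2afx* at 28.5, then *Hist3h2a* at 8.68, *H2afz* at 7.72 and *H3f3a* at 7.25. In this order, with *H3f3b* first, the share of unique windows was 98.08%, 95.15%, 95.33%, 70.2%, 74.31% and 79.19%. Levels were not corrected for it, and windows were not compared with the genome. The order also differed by group, with *H2afz* above *H3f3a* in controls (10.3 against 8.31) and below it in cKO mice (5.82 against 6.46). In controls *Hist3h2ba* was at 51.0 ± 7.44 CPM per kb (SD, n = 3) and *H2afx* at 36.3 ± 5.74, while *Hist3h2a* at 10.5 ± 1.64 and *H2afz* at 10.3 ± 0.781 differed by less than their spread. *Hist1h1c* (3.65), *Hist1h2bc* (3.19), *Hist2h2be* (2.56), *Hist1h2al* (1.53) and *Hist1h4i* (1.07) formed the next group, and the other clustered genes were below 1 CPM per kb. In B7 and B9, however, *Hist2h2be* (3.22 and 3.10) lay above *Hist1h1c* (2.06 and 2.79) and *Hist1h2bc* (1.75 and 2.24). *Hist2h2ac*, the highest gene that was not kept, had 0.350 CPM per kb from 54 counts.

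**Figure D3:**
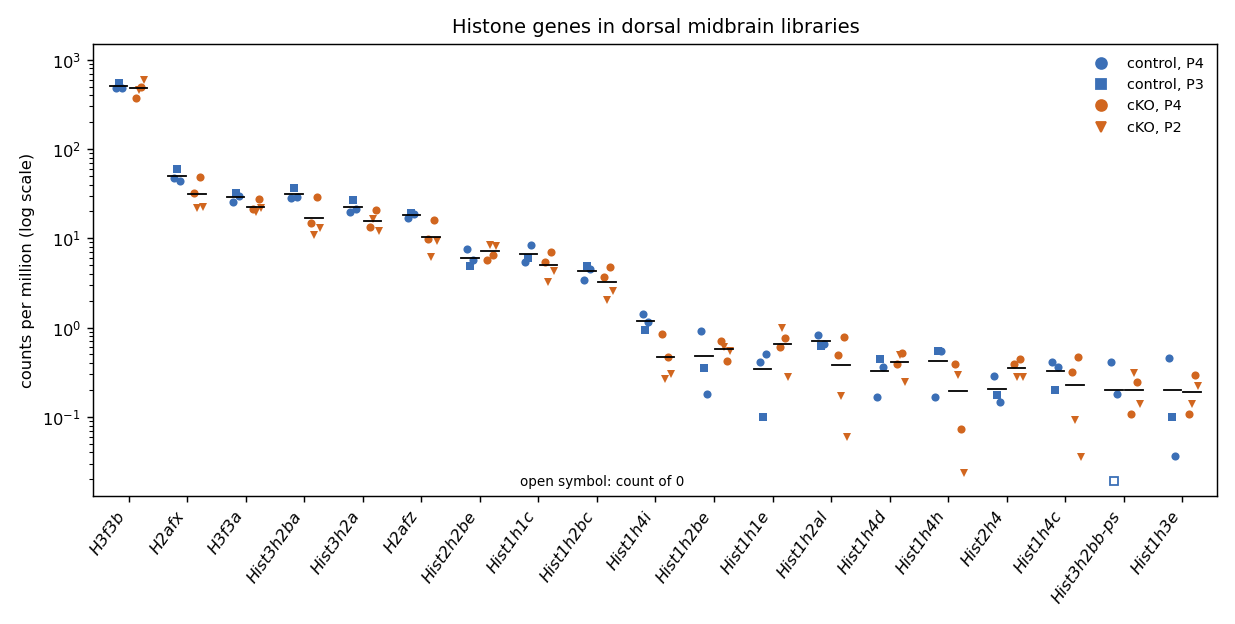
CPM (vertical, log scale) of the 19 kept histone genes in each of the 7 libraries, controls in blue and cKO in orange, with symbols for age and short lines for group means. *H3f3b* stays between 370 and 595 CPM, and for *H2afx*, *H2afz*, *Hist3h2ba* and *Hist3h2a* the P4 cKO library B8 lies highest among cKO libraries.

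The comparison of cKO with control mice asked which histone genes differ when the remaining functional copy of *Brn3b* is lost. With all 7 libraries, 0 of the 18 kept genes tested passed an adjusted p of 0.05 in edgeR (background: 0.00458% of 21817 genes, which is *Pou4f2* alone). *Hist1h3e* did not pass the low count filter of that test. At an unadjusted p under 0.05, 6 genes were lower in cKO mice (*Hist1h4i*, *Hist3h2ba*, *H2afz*, *H2afx*, *Hist3h2a* and *H3f3a*; background for lower genes 13.7%) and 0 were higher (background 16.7%). With DESeq2, which gave an adjusted p to 13 of the 19 genes, *H2afz* and *Hist1h4i* passed and were lower, 2 of 13 (background 3.04%), and 0 were higher (background 7.41%). With limma-voom and quality weights, 10 of 18 passed and were lower (background 24.3%, and 27.7% at an unadjusted p). The weight that each library received was not read out. The median log2 fold change was -0.40 over the 18 genes and 0.0025 over all genes tested. It was -0.67 over the 16 genes tested without B8 and -0.15 over the 17 tested among P4 mice, where 11 were negative and 6 positive. As the groups are whole tissue, fewer cells of a type and less RNA per cell cannot be told apart.

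Library B8 differed most from the P2 cKO libraries. The chi-square per degree of freedom between read counts was 242 for B8 and B9 and 233 for B7 and B8, against 86.4 for B1 and B8, 77.7 for B1 and B9, 51.4 for B1 and B7 and 30.4 for B7 and B9, and from 8.37 to 39.6 among controls. This statistic grows with depth, and the pairs of B8 with B7 and B9 join different ages, so depth, age and library cannot be told apart in it. Without B8, 8 of 16 histone genes tested had an adjusted edgeR p under 0.05, all lower in cKO mice, and 0 were higher (background 23.1% lower and 23.7% higher). These were *H2afx*, *H2afz*, *H3f3a*, *Hist1h1c*, *Hist1h2al*, *Hist1h4i*, *Hist3h2a* and *Hist3h2ba*. At an unadjusted p under 0.05 there were 9 lower (background 26.6%), and DESeq2 without B8 passed 7 of 19, all lower (background 19.3%). Of the B1, B7 and B9 values, all lay below the 3 controls for the same 8 genes (background 28%), while with B8 included this held for *H2afz* and *Hist1h4i* (2 of 18, background 8.01%). Fold changes with and without B8 are given below for these 8 genes and for the others that could be tested both ways. With B8 left out, B1 was the only P4 mouse among the cKO libraries, and the rest were the P2 mice. No control was P2, so age and genotype are harder to tell apart without B8 than with it. Counts and p-values without B8, here and below, therefore do not show an effect of genotype alone.

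The Hist3 cluster holds the clustered H2B and H2A genes with the most counts. In A2, A4 and A6, *Hist3h2ba* was at 28.5, 36.6 and 28.8 CPM, and in B1, B7, B8 and B9 at 14.9, 10.9, 29.2 and 12.9 CPM. B8 thus lay within the control range, and the other cKO libraries lay below it. The log2 fold change of *Hist3h2ba* was -0.89 ± 0.31 (SE, adjusted p = 0.138, edgeR) with all libraries and -1.29 ± 0.16 (adjusted p = 9.97e-05) without B8. *Hist3h2a* was at 19.96, 26.6 and 21.2 CPM in controls and at 13.2, 16.5, 20.8 and 12.1 CPM in cKO mice. Again B8 overlapped the controls, and the fold change on the log2 scale was -0.53 ± 0.21 (adjusted p = 0.142, edgeR), or -0.70 ± 0.16 without B8 (adjusted p = 0.0040).

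*Hist1h1c*, at chr13:23738808-23740367, was the best covered of the clustered linker histone genes. It had 5.39, 6.05 and 8.44 CPM in controls and 5.38, 3.21, 7.07 and 4.35 CPM in cKO mice, so that the groups overlapped. Its log2 fold change was -0.41 ± 0.29 (adjusted p = 0.336, edgeR) and -0.63 ± 0.24 without B8 (adjusted p = 0.0498), but -0.20 without A6 and -0.23 without B7. *Hist1h2bc*, an H2B gene whose start lies 251 bases from that of the H2A gene *Hist1h2ac* on the opposite strand, was at 3.40, 4.87 and 4.49 CPM in controls and at 3.70, 2.02, 4.73 and 2.59 CPM in cKO mice. The lowest 2 libraries of *Hist1h2bc* were the P2 mice, and its log2 fold change without B8, -0.65 ± 0.27, did not pass either (adjusted p = 0.0660 without B8 and 0.388 with it, edgeR).

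*Hist2h2be*, an H2B gene at chr3:96221119-96223738 with a 3′ UTR of 2192 bases and no stem-loop in it, had a difference of the opposite sign. It was at 7.51, 4.92 and 5.70 CPM in controls and at 5.70, 8.44, 6.58 and 8.12 CPM in cKO mice. Both P2 libraries lay above the controls and both P4 cKO libraries among them. The log2 fold change was 0.26 ± 0.22 (adjusted p = 0.430, edgeR) and 0.31 ± 0.22 without B8 (adjusted p = 0.273), and it was 0.13 without A4 and 0.44 without A2. No direct test of the difference between *Hist2h2be* and the Hist3 genes was made.

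H4 genes were counted at low depth. *Hist1h4i*, at chr13:22040636-22041362, was at 1.41, 0.949 and 1.17 CPM in controls and at 0.855, 0.264, 0.468 and 0.306 CPM in cKO mice, from 190 counts in all. The cKO libraries, B8 included, all lay below the controls, with a two-sided exact permutation p of 0.0571, the smallest that 35 splits of the mice allow. Its log2 fold change of -1.36 ± 0.46 had an adjusted p of 0.138 in edgeR and 0.0491 in DESeq2, and it was -1.40 ± 0.50 without B8 (adjusted p = 0.0368, edgeR). *Hist1h4h*, with 76 counts, was at 0.166, 0.550 and 0.548 CPM in controls and 0.392, 0.295, 0.0739 and 0.0235 CPM in cKO mice, and its log2 fold change of -1.21 ± 0.83 did not pass (adjusted p = 0.326, edgeR), nor did its value of -1.002 ± 0.794 without B8. *Hist1h4c* (-0.59 ± 0.81), *Hist1h4d* (0.29 ± 0.50) and *Hist2h4* (0.77 ± 0.49), from 65 to 117 counts each, did not pass either. *Hist2h4* had 7, 7 and 4 counts in controls and 11, 18, 18 and 24 in cKO mice. It was kept only through the group where it was higher. Its sign, also within the 18 genes tested, is therefore not independent of the rule. Without B8 *Hist1h4c* had -1.37 ± 0.78 and *Hist1h4d* 0.15 ± 0.54, and *Hist2h4* was not tested.

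With all 7 libraries the largest positive value belonged to *Hist1h1e*, a linker histone gene with 163 counts. It was at 0.415, 0.0999 and 0.511 CPM in controls and at 0.605, 0.978, 0.764 and 0.282 CPM in cKO mice. The log2 fold change of 0.98 ± 0.63 did not pass (adjusted p = 0.294, edgeR) and the groups overlapped, and it was 0.91 ± 0.64 without B8. With 1 library left out at a time it ranged from 0.49 (without A4) to 1.43 (without A6). Exons of *Hist1h1e* and *Hist1h2be* overlap each other and *Gm11398*, and *Hist1h2be* had a log2 fold change of 0.27 ± 0.54, or 0.39 ± 0.55 without B8. The pseudogene *Hist1h2al*, with 125 counts, was at 0.830, 0.625 and 0.657 CPM in controls and 0.499, 0.171, 0.788 and 0.0588 CPM in cKO mice, with a log2 fold change of -0.96 ± 0.73 (adjusted p = 0.373, edgeR) and -1.73 ± 0.66 without B8 (adjusted p = 0.0483). *Hist3h2bb-ps* (0.15 ± 0.90) and *Hist1h3e*, between 0.0365 and 0.456 CPM in all libraries, could not be resolved at this depth.

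Of the genes outside the clusters, *H2afz* (H2A.Z, a variant found at gene promoters) was lower in every cKO library. It was at 16.7, 19.4 and 18.6 CPM in controls and at 9.87, 6.24, 15.99 and 9.29 CPM in cKO mice. B8 came closest to the controls, without reaching them. The log2 fold change was -0.82 ± 0.28 with an adjusted p of 0.138 in edgeR and 0.0491 in DESeq2, and -1.11 ± 0.18 without B8 (adjusted p = 0.00045, edgeR). The exact permutation test gave *H2afz* a two-sided p of 0.0571, the smallest possible.

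*H2afx*, the comparison gene with a stem-loop, was at 47.1, 59.2 and 44.3 CPM in controls and at 32.4, 21.9, 48.8 and 22.3 CPM in cKO mice. Only B8 reached the control range. Its log2 fold change was -0.68 ± 0.27 (adjusted p = 0.145, edgeR) and -0.99 ± 0.17 without B8 (adjusted p = 0.00057). Of the H3.3 genes, *H3f3a* was at 25.6, 32.2 and 29.7 CPM in controls and at 21.3, 19.7, 27.6 and 21.8 CPM in cKO mice. That difference was -0.37 ± 0.16 on the log2 scale (adjusted p = 0.161, edgeR) and -0.48 ± 0.13 without B8 (adjusted p = 0.0095). *H3f3b*, which encodes the same protein from a gene on chromosome 11, was at 479, 554 and 484 CPM in controls and 370, 463, 497 and 595 CPM in cKO mice, with the lowest and the highest value both in cKO mice and a log2 fold change of -0.07 ± 0.16 (adjusted p = 0.782, edgeR), or -0.09 ± 0.15 without B8.

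**Figure D4:**
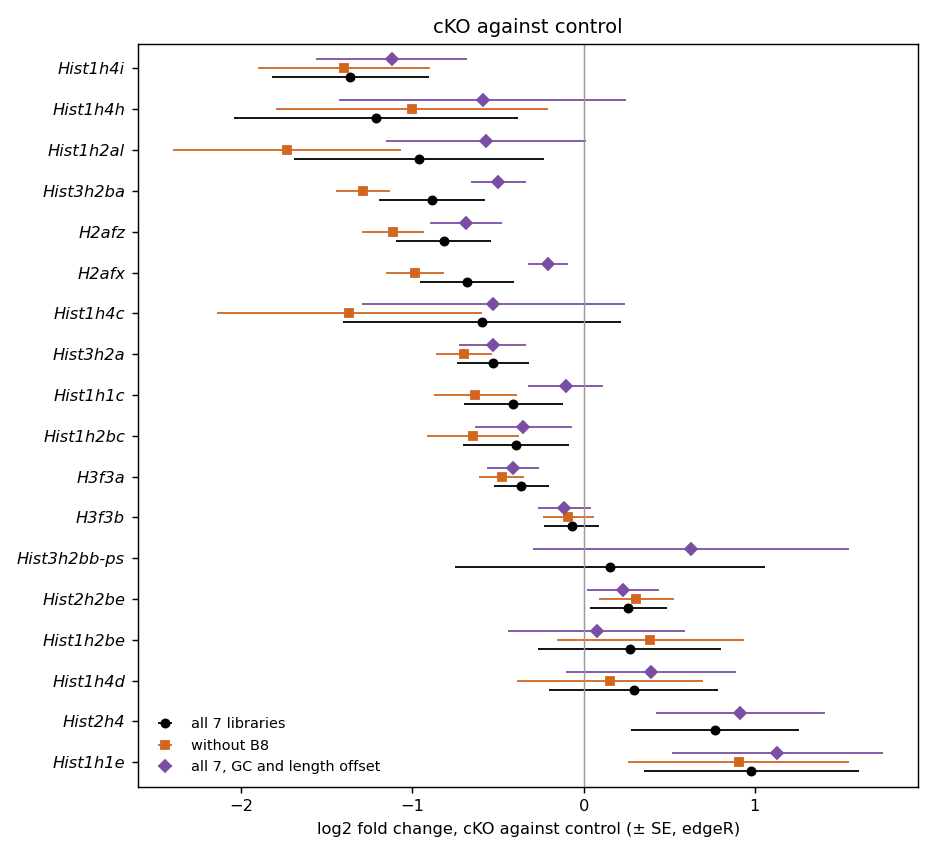
Log2 fold change of cKO against control (horizontal, ± SE, edgeR) for the 18 genes tested, with all 7 libraries (black circles), without B8 (orange squares, 16 genes) and with an offset for GC content and exon length (purple diamonds). *Hist3h2ba* moves from -0.89 to -1.29 without B8 and to -0.50 with the offset, *H2afx* from -0.68 to -0.99 and to -0.21.

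Over 19 alternatives in samples, scaling, filter and test, the adjusted p of *Hist3h2ba* ranged from 6.53e-13 to 0.989, that of *H2afz* from 6.75e-08 to 0.989 and that of *H2afx* from 2.19e-07 to 0.989. For *Hist3h2a* the range was 0.00037 to 0.989, for *Hist1h4i* 0.0037 to 0.989, for *H3f3a* 0.0040 to 0.989 and for *Hist1h1c* 0.0193 to 0.989, and for *Hist1h2al* over 18 alternatives 0.0073 to 0.990. The signs of these 8 genes were negative in every one. With 1 library left out at a time, the log2 fold change ranged from -1.29 to -0.71 for *Hist3h2ba*, -0.70 to -0.40 for *Hist3h2a*, -1.11 to -0.63 for *H2afz*, -0.99 to -0.53 for *H2afx*, -0.48 to -0.29 for *H3f3a*, -1.77 to -1.15 for *Hist1h4i*, -0.63 to -0.20 for *Hist1h1c* and -1.73 to -0.54 for *Hist1h2al*.

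Several of these genes are GC-rich and short, and the libraries differed in how counts depended on GC content and length. When a smooth trend on both was removed per library, the log2 fold change of *H2afx* (62.3% GC) went from -0.68 to -0.21 ± 0.12, that of *Hist1h1c* from -0.41 to -0.11 ± 0.22, that of *Hist3h2ba* from -0.89 to -0.50 ± 0.16 and that of *Hist1h4h* from -1.21 to -0.59 ± 0.84. The pseudogene *Hist1h2al* went from -0.96 to -0.57 ± 0.58. *H2afz* (-0.69 ± 0.21), *Hist3h2a* (-0.53 ± 0.20), *H3f3a* (-0.41 ± 0.15) and *Hist1h4i* (-1.12 ± 0.44) moved by less than 1 standard error. With this offset 0 genes passed the adjusted threshold and 5 were lower at an unadjusted p under 0.05 (*H2afz*, *H3f3a*, *Hist1h4i*, *Hist3h2a* and *Hist3h2ba*; background 15.2%). *H2afx* was no longer among them.

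Age could be separated from genotype only in part. Among P4 mice alone (A2 and A6 against B1 and B8), 0 of 17 genes tested passed the adjusted threshold, and 0 were lower at an unadjusted p under 0.05 (background 0.44%). *Hist1h4i* (-0.98 ± 0.53), *H2afz* (-0.44 ± 0.28) and *Hist3h2ba* (-0.37 ± 0.32) had log2 fold changes of the same sign as in the full comparison. Against controls, the P2 cKO mice (B7 and B9) had 10 of 18 genes lower at an adjusted p under 0.05 (background 24%), with *Hist3h2ba* at -1.41 ± 0.16 and *H2afz* at -1.25 ± 0.19. At an unadjusted p under 0.05 the count was also 10 (background 27.5%), and 0 genes were higher at an adjusted p under 0.05 (background 22.9%). The P4 cKO mice against all controls gave 0 genes lower at an unadjusted p under 0.05 (background 0.967%).

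Postnatal day was also fitted as a number beside genotype, as the log2 change per day over P2 to P4. No kept gene (0 of 18) had an adjusted p under 0.05 for day in edgeR (background 0%) or in DESeq2 (0 of 13, background 0.106%). At an unadjusted p under 0.05, 5 genes were higher with day (*H2afx*, *Hist1h1c*, *Hist1h2al*, *Hist1h4c* and *Hist1h4i*; background 6.46%) and 0 were lower (background 6.09%). The largest coefficients were 1.26 ± 0.32 per day for *Hist1h4c*, 1.08 ± 0.32 for *Hist1h2al* and 0.57 ± 0.22 for *Hist1h4i*. The smallest were -0.15 ± 0.08 for *H3f3b*, -0.13 ± 0.13 for *Hist2h2be* and 0.04 ± 0.30 for *Hist1h4d*. The median was 0.27 over the 18 genes and 0.0087 over all genes. With the offset for GC content and length the median over the 18 genes was 0.096, and 2 genes remained at an unadjusted p under 0.05 (*Hist1h2al* and *Hist1h4c*; background 4.51%). Since both P2 mice were cKO, and were also the most deeply sequenced libraries, day, depth and genotype cannot be told apart fully here. *Hist1h4c* rested on 3 to 19 counts per library.

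Summed over all 70 clustered genes, the level was 73.7, 84.5 and 76.6 CPM in controls and 50.9, 46.7, 75.7 and 43.7 CPM in cKO mice, a log2 ratio of group means of -0.53. Among P4 mice alone it was -0.25, and for the P2 cKO mice against all controls -0.79. No test was made on sums. The 23 genes that run past the stem-loop summed to 58.8, 72.5 and 63.2 CPM in controls and 38.2, 34.4, 61.8 and 32.2 CPM in cKO mice (log2 ratio -0.64). The 23 genes that end at the stem-loop summed to 1.62, 1.20 and 1.53 CPM and to 1.64, 0.792, 0.936 and 0.388 CPM (log2 ratio -0.63), from 33 to 51 counts per library. The 4 genes with a longer 3′ UTR and no stem-loop were level, at 10.9, 9.79 and 10.2 CPM in controls and 9.40, 10.5, 11.3 and 10.7 CPM in cKO mice (log2 ratio 0.02), where *Hist2h2be* and *Hist1h2bc* differed in sign. Without B8 the log2 ratio was -0.73 for all 70 genes, -0.89 for those past the stem-loop, -0.63 for those that end at it and -0.02 for those with a longer 3′ UTR. Without *Hist3h2a* and *Hist3h2ba* the sum of the other 68 genes had a log2 ratio of -0.17, with 21.4 to 26.6 CPM in controls and 18.7 to 25.7 CPM in cKO mice.

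**Figure D5:**
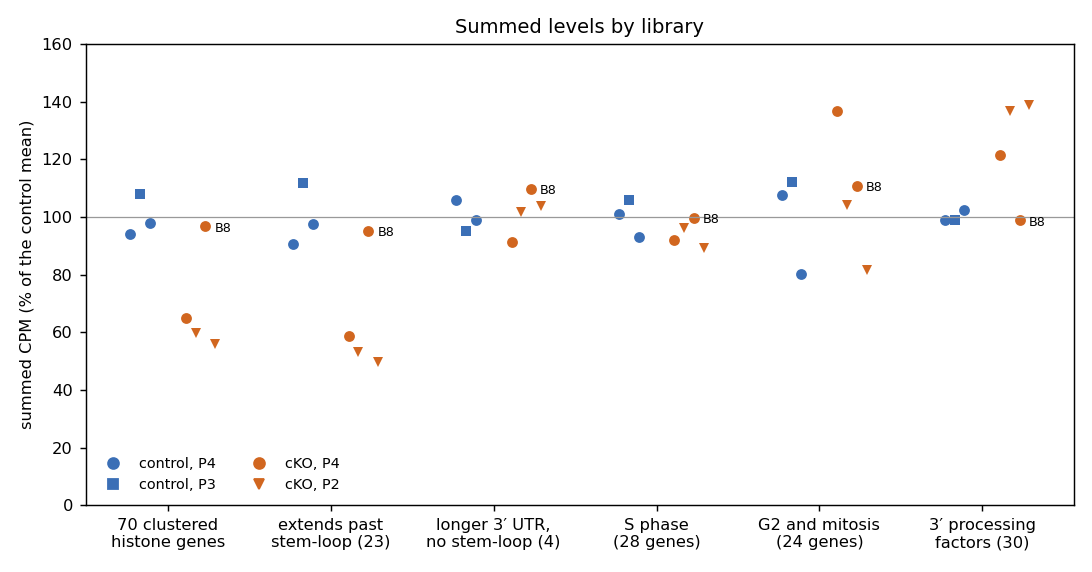
Summed CPM of gene groups in each library as a percentage of the control mean (vertical), controls in blue, cKO in orange, symbols by age, B8 labelled. The clustered sum is at 65.0, 59.7 and 55.9% in B1, B7 and B9 and at 96.8% in B8, and the processing factor sum is at 121, 137 and 139% in B1, B7 and B9 and at 98.9% in B8. The S phase sum lies between 89.1 and 106% and the G2 and mitosis sum between 80.2 and 137% over all libraries.

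Genes of the cell cycle and of histone mRNA processing were followed beside the histone genes. Their counts, and those of the histone variants, chaperones and cell type markers that follow, are read against the shares of all genes given above, 13.7% lower and 16.7% higher at an unadjusted p under 0.05 in edgeR with all 7 libraries, and 23.1% lower and 23.7% higher at an adjusted p under 0.05 without B8. Of 28 DNA replication and S phase genes, 0 passed the adjusted threshold, 2 were lower and 2 higher at an unadjusted p under 0.05, and the median log2 fold change was -0.10. Their sum ranged from 350 to 398 CPM in controls and from 335 to 375 CPM in cKO mice. The most abundant were *Lig1* (-0.11 ± 0.13), *Dut* (-0.42 ± 0.17), *Rrm1* (0.22 ± 0.18) and *Mcm6* (0.19 ± 0.16). DESeq2 passed 0 of these genes, and without B8 7 were lower and 2 higher at an adjusted edgeR p under 0.05, with a median of -0.16. Of 24 G2 and mitosis genes, 0 passed, 0 were lower and 2 higher at an unadjusted p under 0.05, with a median of 0.01, and DESeq2 passed 1, which was higher. Without B8 4 passed and were lower and 3 passed and were higher in edgeR, with a median of -0.06. *Mki67*, a marker of dividing cells, was at 17.2, 12.8 and 12.3 CPM in controls and at 33.6, 31.5, 17.0 and 21.0 CPM in cKO mice (0.87 ± 0.26, adjusted p = 0.138, edgeR, and 1.02 ± 0.19, adjusted p = 0.0011, without B8). With the GC and length offset *Mki67* was at 0.40 ± 0.20 (adjusted p = 0.226, edgeR), 0 of the 24 genes were higher at an unadjusted p under 0.05 and the list's median was -0.19. *Top2a* had 0.29 ± 0.24, *Ccna2* -0.07 ± 0.22 and *Nusap1* 0.01 ± 0.20 with all libraries.

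*Slbp*, which encodes the stem-loop binding protein, was at 38.0, 36.4 and 36.7 CPM in controls and at 36.5, 38.3, 33.3 and 37.2 CPM in cKO mice. The groups overlapped, with a log2 fold change of -0.03 ± 0.12 (adjusted p = 0.886, edgeR), or 0.01 ± 0.11 without B8. Over 30 genes for histone mRNA transcription, 3′ processing and decay, 0 passed, 2 were lower and 10 higher at an unadjusted p under 0.05, and the median log2 fold change was 0.31. The most abundant were *Lsm11*, a subunit of the U7 particle that cleaves histone mRNAs (0.33 ± 0.16), *Srrt* (-0.08 ± 0.12), *Cstf2*, a polyadenylation factor (0.70 ± 0.24), and *Sympk*, a scaffold of the cleavage complex (0.08 ± 0.12). None of these 4 had an adjusted p under 0.05 in edgeR with all 7 libraries. DESeq2 passed 5 of the 30, all higher (background 7.41%). Without B8, 16 of the 30 passed and were higher and 3 passed and were lower in edgeR, with a median of 0.40. Their sum was 1542 to 1598 CPM in controls and 1894 to 2167 CPM in B1, B7 and B9, and in B8 it was at 98.9% of the control mean. With the GC and length offset the list's median, with all libraries, was 0.06.

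Other replication-independent histone variants, 7 genes, had a median log2 fold change of -0.60, with 0 past the adjusted threshold and 4 lower at an unadjusted p under 0.05 (background 13.7%). With the GC and length offset the median was -0.35 and again 4 were lower. *H1fx* (linker histone H1X) was at 49.2, 85.6 and 54.3 CPM in controls and at 31.4, 20.2, 57.9 and 22.5 CPM in cKO mice (-0.94 ± 0.35, adjusted p = 0.140, edgeR, and -1.36 ± 0.21, adjusted p = 0.00031, without B8). B8 again lay within the control range. *H1f0* (-0.17 ± 0.14), *H2afy* (0.02 ± 0.12) and *H2afy2* (-0.04 ± 0.14), which encode H1.0 and macroH2A proteins, differed by less than 2 standard errors. The other 3 genes below that threshold, named after their values were seen, were *H2afj* (-0.73 ± 0.20), *H2afv* (-0.60 ± 0.24) and *Cenpa* (-0.82 ± 0.34), and for *H2afj* DESeq2 gave an adjusted p of 0.0302. Without B8, 4 of the 7 passed in edgeR, all lower (background 23.1%), with a median of -0.85. Over 17 histone chaperones, 0 passed, 0 were lower and 3 higher at an unadjusted p under 0.05, with a median of 0.13, and DESeq2 passed 1, which was higher. Without B8 4 passed and were higher and 1 passed and was lower in edgeR, with a median of 0.15. With the GC and length offset and all libraries, 3 chaperones were lower and 2 higher at an unadjusted p under 0.05 (background 15.2% and 11%). Their median was then -0.021. Among the most abundant, *Atrx* had 0.78 ± 0.28, which the offset for GC content and length brought to -0.02, *Rbbp4* -0.12 ± 0.11, *Nap1l4* -0.16 ± 0.11 and *Nap1l1* -0.003 ± 0.12.

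Markers of the tissue and of other cell types were read in the same libraries. All 11 dorsal midbrain markers were counted above 3 counts in some library, *Tfap2b* at 520 to 944 CPM across libraries. Of 10 cerebellar granule lineage markers, *Atoh1* and *Gabra6* stayed at or under 3 counts in every library, while the other 8 were tested and the list summed to 231 to 284 CPM in controls and 220 to 315 CPM in cKO mice. Counts in this paragraph are at an unadjusted p under 0.05 with all 7 libraries (background 13.7% lower and 16.7% higher) and, where B8 was left out, at an adjusted p under 0.05 (background 23.1% and 23.7%), both in edgeR. The summed level of 8 neural progenitor and radial glia markers was 1567 to 1872 CPM in controls and 935 to 1630 CPM in cKO mice, with 2 of 8 lower and 1 higher, and 2 lower and 2 higher without B8. The lower markers were *Hes5* (-1.02 ± 0.37) and *Fabp7* (-0.66 ± 0.24) and the higher one *Notch1* (0.92 ± 0.24), joined by *Nes* without B8 (0.41 ± 0.16), of which all but *Fabp7* were named after their values were seen. The list's median was 0.04, and -0.0068 without B8. Of 8 microglia markers 3 were lower (2 passed and were lower in DESeq2, background 3.04%) and 4 were lower without B8, with sums of 148 to 208 CPM and 116 to 155 CPM, and *C1qa* and *C1qb* at -1.06 ± 0.33 and -1.17 ± 0.35. Red blood cell markers, 6 genes of which 5 were tested, summed to 132 to 496 CPM in controls and 57.8 to 179 CPM in cKO mice, with a median of -1.13 and 0 lower, and 3 of 5 lower without B8 (median -1.41). Among P4 mice the red blood cell sums of B1 and B8 (177 and 179 CPM) lay above those of A2 and A6 (156 and 132 CPM), with 2 of 5 genes higher at an unadjusted p under 0.05 (background 0.744%), and A4 had the highest sum (496 CPM). Of 8 neuron markers 3 were lower and 1 higher, and 3 lower and 3 higher without B8, with medians of -0.02 and -0.0036. Of 8 oligodendrocyte lineage markers 0 were lower and 1 higher, and 3 lower and 1 higher without B8. For astrocytes (6 genes) 1 was lower and 1 higher, for endothelium (6 genes) 0 and 2, for the dorsal midbrain (11 genes) 2 and 4, *Pou4f2* itself being 1 of the lower genes, for the granule lineage (8 genes tested) 0 and 1, and for the cortex (5 genes) 0 and 0.

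With all 7 libraries, the sums of neuron (5044 to 5875 and 4296 to 5100 CPM), astrocyte (784 to 803 and 798 to 894 CPM), oligodendrocyte lineage (446 to 507 and 349 to 545 CPM), endothelial (132 to 206 and 142 to 199 CPM) and cortical markers (52.1 to 64.1 and 44.3 to 60.3 CPM) overlapped between controls and cKO mice. Without B8, the neuron sum in B1, B7 and B9 (4296 to 4624 CPM), the progenitor sum (935 to 1349 CPM) and the microglia sum (116 to 137 CPM) lay below all 3 controls, although the neuron and progenitor medians without B8 were close to 0. The progenitor, microglia, red blood cell and oligodendrocyte lineage sums were lowest in B7 and B9, as was the clustered histone sum, and their part in the histone differences was not tested.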

How the data were processed

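PolyA RNA from dorsal midbrain (RNA selected on oligo-dT beads, strand-specific paired-end libraries) was sequenced for 7 mice, 1 library each. After trimming, TopHat2 (with Bowtie 2) placed the read pairs on GRCm38.p5, and HTSeq assigned them to GENCODE vM15 genes; its strand and overlap options are not given in the sources used here. The authors deposited these raw counts, not normalized, for 52636 genes. Entries that name no gene held 31.0% to 38.2% of each library (8.14% to 11.1% aligned to more than 1 place) and were left out. Counts on genes ranged from 23588248 to 87572085. Libraries of 1 group always differed beyond sampling noise, so each was 1 replicate.

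Counts were tested in R 4.3.3 with edgeR 4.0.16 (filterByExpr with a minimum count of 10 and total of 15, TMM, glmQLFit, glmQLFTest, genotype as the only term, all 7 libraries) and Benjamini-Hochberg adjustment over all genes tested at 0.05. The day fit added postnatal day as a number. CPM uses TMM library sizes, and log2 CPM a prior count of 2. Standard errors were derived from the coefficient and the F statistic. DESeq2 1.42.0, limma 3.58.1 (voom with quality weights), other scalings and filters, subsets by age, a GC content and length offset (mgcv 1.9.3) and leaving out each library were alternatives. The tests were checked on simulated data. DESeq2 without B8, and the limit of 100 bases past the stem-loop, were chosen after seeing the data. Leaving out B8, or any rule here, is not independent of earlier results: the members, gene lists and alternatives were chosen with earlier results of these data known.

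Symbols, exons and transcripts came from GENCODE vM21 (GRCm38), which matched 52489 gene identifiers; *Tut7* and *Tut4* were matched through RefSeq synonyms. Windows of 100 bases were compared with annotated transcripts on both strands. Named genes were *Pou4f2*, the 4 comparison genes, the 10 clustered genes with the highest CPM per kb, members past the adjusted threshold, the 5 highest and 5 lowest log2 fold changes, the 3 highest and 3 lowest day coefficients, and up to 4 most abundant genes per list with *Slbp*.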

Additional observations from a re-analysis of the deposited data

Results flagged for a closer look

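In the group of 4 cKO libraries, 3 summed histone levels had 1 library farther from the rest than Dixon's 95% limit for 4 values, and in each it was B8. The sum of the 15 kept clustered genes was 72.9 CPM in B8 and 47.3, 44.7 and 42.2 CPM in B1, B7 and B9, with a gap of 0.836 of the range. The sum of the 19 H2B genes of the clusters was 41.8 CPM in B8 and 25.8, 22.6 and 25.0 CPM in the others, with a gap of 0.833. For *Hist3h2a*, *Hist3h2ba*, *Hist2h2be*, *Hist1h1c* and *Hist1h2bc* together it was 68.4 CPM in B8 and 42.9, 41.1 and 40.1 CPM in the others, with a gap of 0.901. All 3 sums hold *Hist3h2ba*, and the first and the third also hold *Hist3h2a*, so that they are not separate observations. Of 36 values checked, chance gives about 1.8, or 1 in 20. The 3 control libraries are too few for this check. B8 carried the lowered *Pou4f2* level of the other cKO libraries, at 10.6 CPM.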

How the results depend on the processing

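The count of histone genes past the adjusted threshold, 0 in edgeR, was 2 with DESeq2, 10 with limma-voom and quality weights, 10 for the P2 cKO mice against controls, 8 without B8 and 7 in DESeq2 without B8; leaving out 1 library at a time gave 0 to 8, with 0 for each library but B8. The count at an unadjusted p under 0.05, 6, was 10 with limma-voom, 10 for the P2 cKO mice, 0 for P4 mice alone and 0 for the P4 cKO mice against all controls, and 2 to 9 when 1 library was left out, with 2 without A4, B1 or B9 and 9 without B8. For postnatal day the count of 5 was 3 among genes with 10 counts in every library, 2 with the GC and length offset, and 2 to 7 when 1 library was left out (2 without B7, 3 without B9). For the 18 genes, 325 log2 fold changes were recomputed, of which 9 changed sign, in 7 genes. Of these 7, *Hist1h2bc* and *Hist1h4c* were called lower with limma-voom (adjusted p = 0.0283 and 0.0363) and in the P2 cKO mice against controls (adjusted p = 0.0147 and 0.0370, edgeR). The sign turned for *Hist1h2bc* (0.10), *Hist1h4c* (0.035) and *Hist2h2be* (-0.10) among P4 mice, for *Hist1h4c* (0.32) in the P4 cKO mice against all controls, for *H3f3b* (0.048) in the P2 cKO mice and for *Hist3h2bb-ps* (-0.021) in DESeq2 without B8. With 1 library left out, *H3f3b* ranged from -0.18 to 0.034, *Hist1h2be* from -0.11 to 1.05 and *Hist1h4d* from -0.0029 to 0.61. The log2 ratio of the genes that run past the stem-loop was -0.29 among P4 mice, against -0.64, and that of the genes with a longer 3′ UTR was 0.25 when only genes with 80% unique windows were summed, against 0.02, since this leaves *Hist2h2be* as the counted gene. The cause of the other shifts was not tested. No paired analysis was possible because the labels name the mice A2, A4 and A6 or B1, B7, B8 and B9, which gives the groups no shared replicate number. Depth limits the genes under about 100 counts in all, whose standard errors reach 0.49 to 0.90 on the log2 scale, and shared sequence limits the 29 clustered genes with fewer than 50% of windows unique.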
